A study of Homo sapiens with 15 samples.

Results

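The 3 libraries of K562 cells carrying dCas9-KRAB and the gRNA Cr10 were compared with the 3 libraries of K562 cells carrying dCas9-KRAB and no gRNA, 6 of the 15 libraries of the study, chosen by their titles. K562 is a human erythroleukemia line that carries open chromatin at its globin genes. Cells were transduced with lentivirus in medium with the polymer polybrene at 4 µg/ml and selected with puromycin at 1 µg/ml from about 96 hours after transduction, and nuclei were digested with a nuclease to map accessible DNA. Both groups therefore share the cell line, dCas9-KRAB, the lentiviral transduction and the selection, and differ by title in the gRNA. One annotation field names HS2 as the gRNA target in both groups, and the title and design text were followed. The labels give no clone, and they do not say whether the 3 replicates of a group came from separate transductions, so a p-value here reflects only how these libraries vary, and that variation may be technical.

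dCas9 is a Cas9 protein that binds DNA where its gRNA directs it but does not cut. KRAB is a repressor domain from zinc finger proteins that recruits KAP1 and, through it, enzymes that deposit methylation at lysine 9 of histone H3. HS2 is an enhancer in the locus control region, a group of nuclease-hypersensitive sites (HS1 to HS5) upstream of the beta-globin genes that drives their expression in erythroid cells. The comparison asks what the Cr10-guided repressor did to accessible chromatin at HS2, near it and across the genome.

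The peak lists of the Cr10 libraries held 60522, 67779 and 70093 peaks in replicates 1, 2 and 3, and those of the no-gRNA libraries held 63387, 88368 and 61074. The total number of fragments per library is not given in the sources used here. The lowest local background of a list, which scales with depth, was 3.12, 2.81 and 2.98 fragments in the Cr10 libraries and 2.99, 5.59 and 2.21 in the no-gRNA libraries. No-gRNA replicate 2 thus stood apart as the deepest of the 6, and it alone held 12734 of the 15340 regions (83.0%) with a peak in exactly 1 no-gRNA library and in no Cr10 library. Strength was measured in a way that scales with depth and then corrected for it: the fold and p-value of each peak imply a whole number of fragments piled up at its summit, and this pileup plus 1 was divided by the library's median plus 1, taken across the 38888 regions that had a peak in each of the 15 lists. Those medians were 61, 69 and 68 fragments in the Cr10 libraries and 64, 109 and 53 in the no-gRNA libraries.

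HS2 had the largest difference of the 38888 regions tested: its peak was weaker with Cr10 and was still called in every library. The HS2 region lay at chr11:5301766-5302230 (hg19), and a peak was present there in all 6 libraries. The summit pileup was 66, 44 and 53 fragments in the Cr10 libraries and 135, 150 and 110 in the no-gRNA libraries. Relative to the library median this was 1.08, 0.643 and 0.783 times in the Cr10 libraries, and 2.09, 1.37 and 2.06 times in the no-gRNA libraries. Every Cr10 library was below every no-gRNA library, and Cr10 replicate 1 was the highest of its group. The group means were 0.835 ± 0.224 times the library median with Cr10 and 1.84 ± 0.405 without gRNA (SD, n = 3 each).

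The difference at HS2, Cr10 minus no gRNA, was -1.15 on the log2(pileup + 1) scale (SE 0.19), a ratio of 0.452. In limma over the 38888 regions it had the lowest p and the largest size, but its Benjamini-Hochberg adjusted p was 0.0999. That fit had no block. The titles number the replicates, and that equal numbers belong together was inferred from these same data. With the replicate number as a block in limma, an alternative fit, the adjusted p was 3.74e-05 (SE 0.13). HS2 was then the 1 region of 38888 called lower (0.00257%) and 0 were called higher, while 317 were lower (0.815%) and 284 higher (0.73%) at an unadjusted p under 0.05. Without the block limma called 0 regions at an adjusted p of 0.05, while 181 were lower (0.465%) and 146 higher (0.375%) at an unadjusted p under 0.05. HS2 was also called when no-gRNA replicate 2 was left out (-1.35, limma adjusted p 0.0260) and when Cr10 replicate 1 was left out (-1.35, limma adjusted p 0.00583). Each of these was the library of its group nearest the other group at HS2. Leaving out no-gRNA replicate 1 or 3, or Cr10 replicate 2 or 3, gave no call (-1.12 to -0.98, limma adjusted p 0.958 to 0.9999). An exact permutation test of HS2 alone gave p = 0.1, two-sided, the smallest that 3 libraries against 3 allow.

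The peak at HS2 was also narrower. It was 408, 383 and 370 bp wide in the Cr10 libraries and 457, 427 and 412 bp in the no-gRNA libraries, with means of 387 ± 19.3 and 432 ± 22.9 bp (SD, n = 3 each; exact permutation p = 0.1). The groups did not overlap in width. Width was not corrected for depth, and the share of all regions with such a separation is not given here. The summit sat at positions 5301940, 5301912 and 5301990 in the Cr10 libraries and at 5301992, 5301995 and 5301990 in the no-gRNA libraries. Cr10 replicates 1 and 2 had their summits left of the others and replicate 3 did not. A mean shift of at least this size, 45 bp, occurred in 2636 of 43852 regions (6.01%) with a peak in all 6 libraries (exact permutation p = 0.2 at HS2).

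Ranked within its list, HS2 stood lower in all 3 Cr10 libraries than in any no-gRNA library. Lists were shortened to 53098 peaks each, the length of the shortest of the 15, and a percentile of 100 marks the peak with the highest fold. HS2 stood at percentiles 50.6, 1.94 and 19.0 in the Cr10 libraries and at 70.4, 55.7 and 72.6 in the no-gRNA libraries. The difference was -42.3 percentile points (SE 12.1), 9th by size and 61st by p of 62858 regions, with a limma adjusted p of 1.00 with and without the replicate block. By rank limma called 0 regions in either direction, while 943 were lower (1.5%) and 822 higher (1.31%) at an unadjusted p under 0.05; with the block these were 1235 (1.96%) and 1014 (1.61%). The authors' fold, from which the rank is taken, averaged 5.87 ± 1.07 with Cr10 and 9.14 ± 1.36 without gRNA at HS2 (SD, n = 3 each), and it divides the pileup by the local background, which also differed at this locus.

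**Figure D1:**
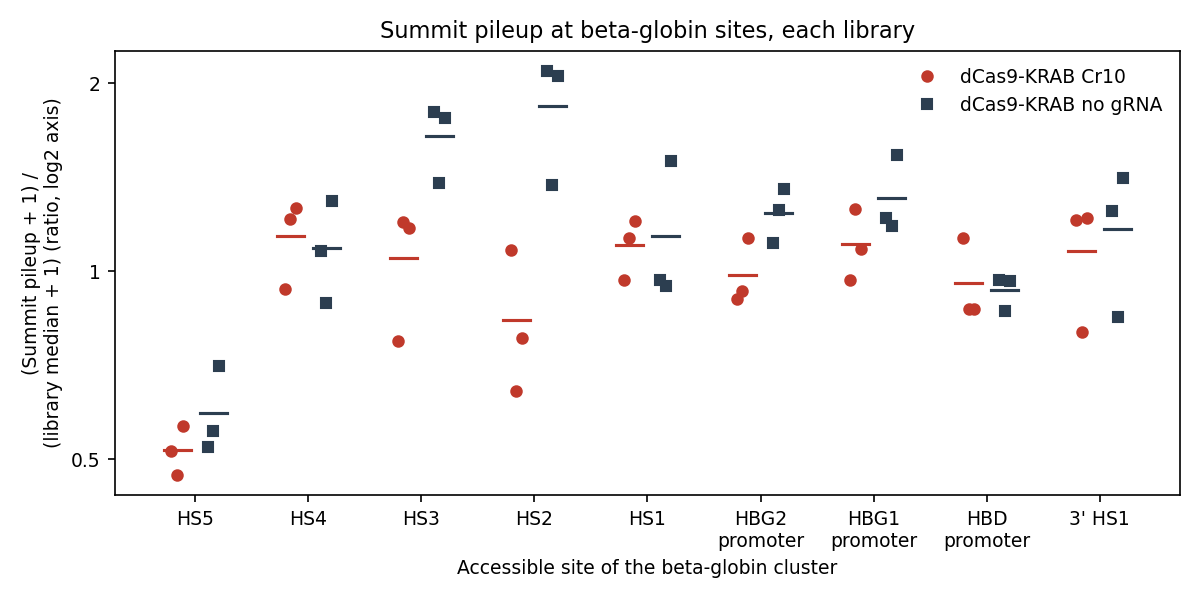
Summit pileup plus 1 divided by the library median plus 1 (ratio, log2 axis) at the accessible sites of the beta-globin cluster, in the order of the chromosome from upstream of the locus control region to its far end, for the 3 Cr10 libraries (circles, left) and the 3 no-gRNA libraries (squares, right); bars are group means. At HS2 the Cr10 libraries lie between 0.643 and 1.08 and the no-gRNA libraries between 1.37 and 2.09, and HS3 also separates the groups, while the groups overlap at every other site drawn.

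HS3, the hypersensitive site next to HS2 on the side away from the globin genes, was the other region within 100 kb whose groups did not overlap in pileup. It lay at chr11:5305792-5306310, 2.79 kb from the HS2 window. The pileup was 47, 83 and 80 fragments in the Cr10 libraries and 116, 151 and 94 in the no-gRNA libraries. In units of the library median this was 0.774, 1.20 and 1.17 with Cr10 and 1.80, 1.38 and 1.76 without gRNA. Cr10 replicate 1 was the lowest at HS3 and the highest at HS2, so the order of the Cr10 libraries differed between the 2 sites. The difference at HS3 was -0.67 in log2 (SE 0.21), 4th by size and 6th by p of 38888, with a limma adjusted p of 1.00 with and without the block. By rank HS3 differed by -16.5 percentile points and the groups overlapped.

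HS1 and HS4, the sites on either side of these, had pileups with overlapping groups and small differences. HS1 (chr11:5296783-5297378, 3.62 kb away) had pileups of 59, 78 and 82 fragments with Cr10 and 62, 103 and 80 without gRNA, a log2 difference of -0.02. HS4 (chr11:5309327-5309737, 6.33 kb away) had 57, 84 and 86 fragments with Cr10 and 69, 97 and 69 without gRNA, a log2 difference of 0.07, or -0.05 without division by the library median. By rank both sites stood higher with Cr10. HS4 stood at percentiles 56.8, 68.1 and 63.0 with Cr10 and 44.2, 30.8 and 56.1 without gRNA, with no overlap. Non-overlap in this direction was seen by rank in 1240 of 37823 regions (3.28%). HS1 stood at 60.7, 79.7 and 79.9 with Cr10 and 33.1, 43.4 and 63.9 without gRNA, with overlap. The rank differences were 18.9 points for HS4 and 26.6 for HS1 (SE 9.60 and 12.6), each with a limma adjusted p of 1.00. HS5, the outermost site (chr11:5312466-5312801), differed by -0.19 in log2 pileup, with overlapping groups.

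The globin promoters showed smaller differences, all with overlapping groups. At the promoter of HBG2, one of the fetal gamma-globin genes that K562 cells use (chr11:5275738-5276312), the pileup was 55, 64 and 77 fragments with Cr10 and 71, 137 and 72 without gRNA. The log2 difference there was -0.33 (SE 0.19), with a limma adjusted p of 1.00. The HBG2 peak was 307, 386 and 320 bp wide with Cr10 and 401, 536 and 491 bp without gRNA, and these widths did not overlap (338 ± 42.4 against 476 ± 68.7 bp, SD, n = 3 each; exact permutation p = 0.1). As at HS2, width was not corrected for depth and the share of all regions with such a separation is not given here. HBG1, the other gamma-globin gene, differed by -0.25 at its promoter, and the 2 genes are nearly identical, so the split of fragments between them is uncertain. HBD, the adult delta-globin gene, differed by 0.03 (-0.09 without division by the library median), and 3' HS1, the site at the far end of the cluster, by -0.11. The promoter of HBE1, the embryonic epsilon-globin gene, carried a peak in 0 of 3 Cr10 libraries and in 1 of 3 no-gRNA libraries, with 35 fragments in the deepest one, no-gRNA replicate 2. No library of the 15 had a peak at the promoter of HBB, the adult beta-globin gene.

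Sites that mark the line were present in both groups. HS-40, the enhancer of the alpha-globin genes on chromosome 16, had pileups of 134, 171 and 163 fragments with Cr10 and 160, 206 and 128 without gRNA, a log2 difference of 0.06. The promoter of GATA1, the master transcription factor of erythroid cells, differed by 0.11. Without division by the library median these were -0.06 and -0.01. The promoter of CD3E, a T-cell gene, had a peak in 0 of these 6 libraries. All site names rest on recalled hg19 positions that were not checked against an annotation.

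The local background, the fragment level around a peak that the authors' fold divides by, was also lower around HS2. This measure was added after the data were seen. Divided by the lowest background of the list, it was 2.76, 2.95 and 2.79 at HS2 with Cr10 and 4.68, 3.28 and 4.33 without gRNA. At HS1 it was 2.13, 2.17 and 2.10 with Cr10 and 3.20, 2.51 and 3.46 without gRNA. At HS3 it was 2.67, 3.14 and 3.05 with Cr10 and 4.54, 3.20 and 4.2 without gRNA. These 3 sites had the 3 lowest differences of the 43852 regions with a peak in all 6 libraries, at -0.52, -0.51 and -0.42 in log2, and their groups did not overlap. Non-overlap in this direction was seen in 525 regions (1.2%). Divided by the median background of the list instead, the differences were -0.57, -0.56 and -0.47, again with no overlap. The place of HS2 depended on 1 library. For the background over the lowest, HS2 was 65th by size of 39254 regions with no-gRNA replicate 1 left out (-0.41). With any other replicate left out HS2 was 1st or 2nd.

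**Figure D2:**
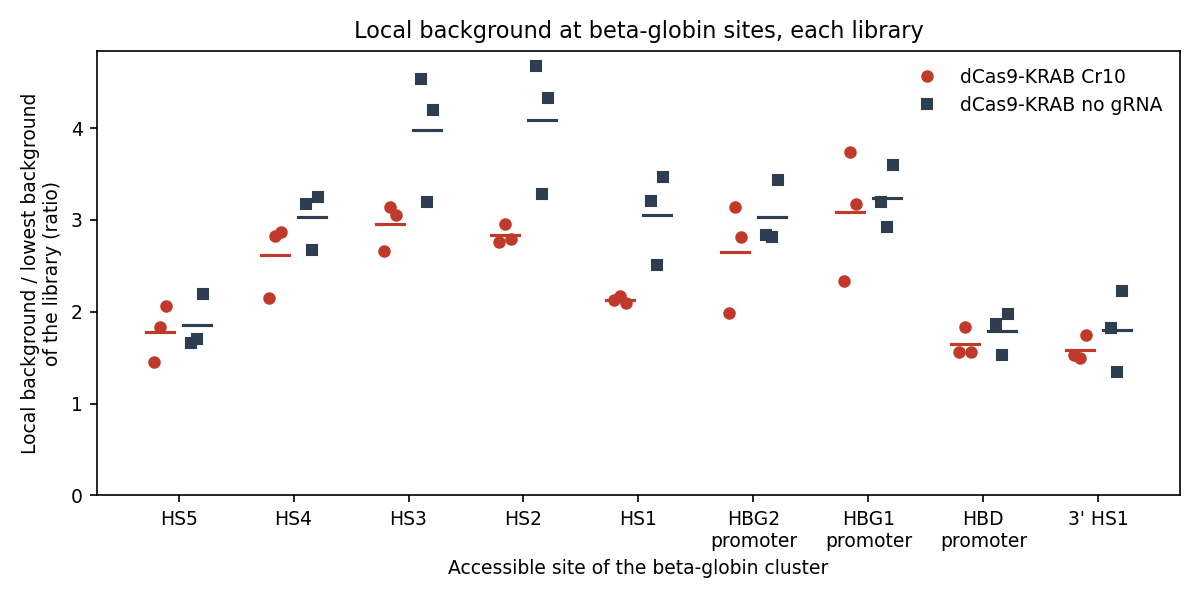
Local background divided by the lowest background of the list (ratio) at the same beta-globin sites, for the 3 Cr10 libraries (circles, left) and the 3 no-gRNA libraries (squares, right), with bars at the group means. HS1, HS2 and HS3 separate the groups; at HS1 the Cr10 libraries lie between 2.10 and 2.17 and the no-gRNA libraries between 2.51 and 3.46.

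HS4 was 73rd and the HBG2 promoter 95th in the same order, so 5 of the 100 lowest regions lay within 100 kb of HS2, where 12 regions were measured. In limma 0 of 38888 regions were called on this measure with or without the block, while 82 were lower (0.211%) and 78 higher (0.201%) at an unadjusted p under 0.05 without the block, and 149 (0.383%) and 140 (0.36%) with it. The unadjusted limma p was 0.00598 at HS1, 0.0150 at HS2 and 0.0507 at HS3, each with an adjusted p of 1.00. Background windows of neighbouring peaks can share fragments, including those under HS2 itself, so the 3 sites are not independent, and the part of this sharing in the result was not tested. At HS4 the groups overlapped in background. The fold at HS1 and HS4 averaged 10.1 ± 1.98 and 8.71 ± 1.06 with Cr10 and 7.42 ± 1.76 and 7.13 ± 1.27 without gRNA (SD, n = 3 each), with exact permutation p = 0.2 for each.

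Away from the locus control region no pileup difference of the size seen at HS2 was found among regions with a peak in all 6 libraries. By rank, where a region without a peak counts as 0, HS2 was 9th by size of 62858 regions. The differences that follow are in pileup. The 4 regions within 10 kb of HS2 with a peak in all 6 libraries had a median log2 difference of -0.11, and 1 of them, HS3, was weaker, meaning that every Cr10 library was below every no-gRNA library. This held for 2.16% of all regions with a peak in all 6 libraries, and the opposite, called stronger, for 2.26%. The 7 regions between 10 and 100 kb also had a median of -0.11, and none was weaker or stronger. The 24 regions between 100 kb and 1 Mb had a median of -0.01 and none was weaker or stronger. Between 1 and 10 Mb 6 of 399 regions were weaker and 12 stronger, with a median of 0.02, and farther along chromosome 11 these were 47 and 45 of 1990. On the other chromosomes 891 of 41427 regions were weaker and 932 stronger, with a median of 0.01.

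**Figure D3:**
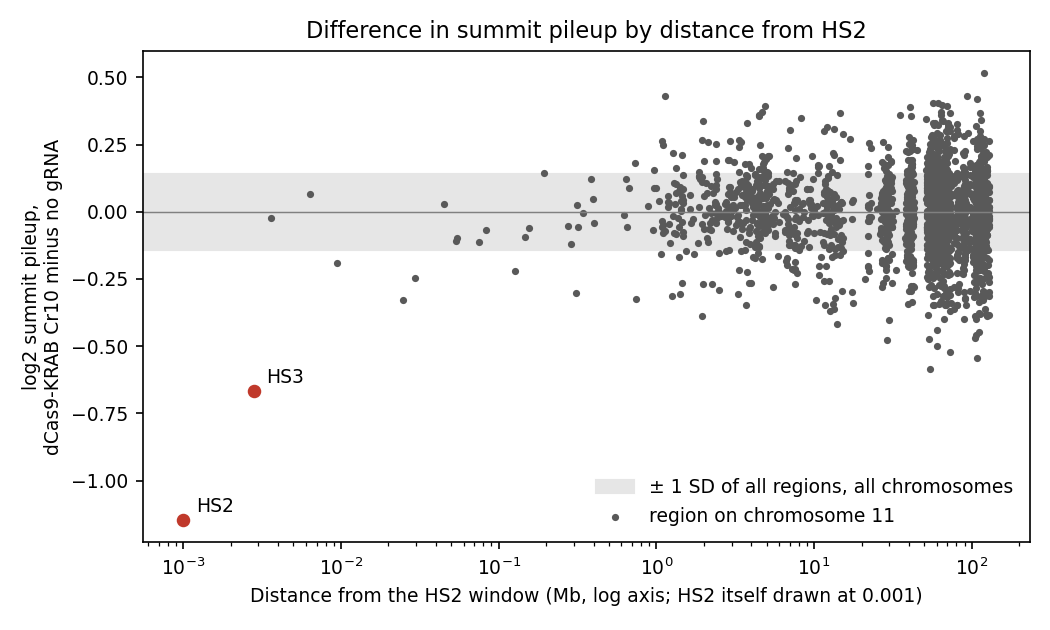
Log2 difference in summit pileup (Cr10 minus no gRNA, each library relative to its median) against the distance from the HS2 window in Mb (log axis) for the regions of chromosome 11 with a peak in all 6 libraries; the grey band is 1 SD of all regions on all chromosomes on either side of 0. HS2 at -1.15 and HS3 at -0.67 are the lowest points, and no other region of the chromosome is below -0.59.

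Of all 43852 regions with a peak in all 6 libraries, 946 were weaker (2.16%) and 989 stronger (2.26%) by pileup. By rank, of the 37823 regions present in all 6 shortened lists, 1168 were weaker (3.09%) and 1240 stronger (3.28%). With percentiles taken in the deposited lists, which differ in length, 1744 of 43852 were weaker and 466 stronger. The rank measure placed 1 region between 100 kb and 1 Mb among the weaker, at chr11:4560769-4561206, 740 kb from HS2, with a difference of -23.0 points and a limma adjusted p of 1.00. Without division by the library median the counts by pileup were 207 weaker and 0 stronger. The median difference of the 38888 regions tested then lay at -0.11. HS2 then differed by -1.27 and HS3 by -0.79, so the differences given above are relative to the typical region of each library.

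The calling of peaks was also compared near HS2, where regions were few. Within 100 kb 23 regions had a peak in at least 1 of the 6 libraries. Of these, 9 had a peak in fewer Cr10 than no-gRNA libraries (39.1%), 1 in more (4.35%) and 13 in as many. Over all 96962 regions these shares were 27.9% for fewer and 14.6% for more. In shortened lists, where no-gRNA replicate 2 no longer has more peaks, 5 of 19 regions near HS2 had fewer (26.3%) and 0 had more. The shares of all regions in those lists were 18.0% and 17.7%. Of the 9, those at chr11:5264258-5264540, chr11:5291041-5291397 and chr11:5385019-5385299 had a peak in no-gRNA replicate 2 alone of the 6 libraries. The largest of the 9, at chr11:5279797-5280206, had 29 fragments in Cr10 replicate 2 and no peak in the other 2 Cr10 libraries, and 32, 64 and 34 fragments in the no-gRNA libraries. At chr11:5264683-5265136 Cr10 replicate 2 had 23 fragments and the other 2 no peak, while the no-gRNA libraries had 28, 39 and 23. At chr11:5288326-5288665, between the HBG genes and HBE1, Cr10 replicate 3 had 19 fragments and the other 2 no peak, while the no-gRNA libraries had 15, 34 and 17. These 3 regions were chosen after their values were seen.

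Among regions with a peak in every list, the pileup differences across the genome were small. Of all 96962 regions, those with a peak in only some of the lists were left out of this test. Larger differences among them could therefore not be seen in it. Over the 38888 regions of the limma test the log2 differences had a median of 0.01 and an SD of 0.137, and 96.4% lay within 0.3 of 0. A difference of 0.5 or more was seen in 54 regions that were lower and 13 that were higher. HS2 was the only one of the 38888 past 0.75 in either direction, and the second lowest, at chr8:96113746-96114187, stood at -0.71.

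**Figure D4:**
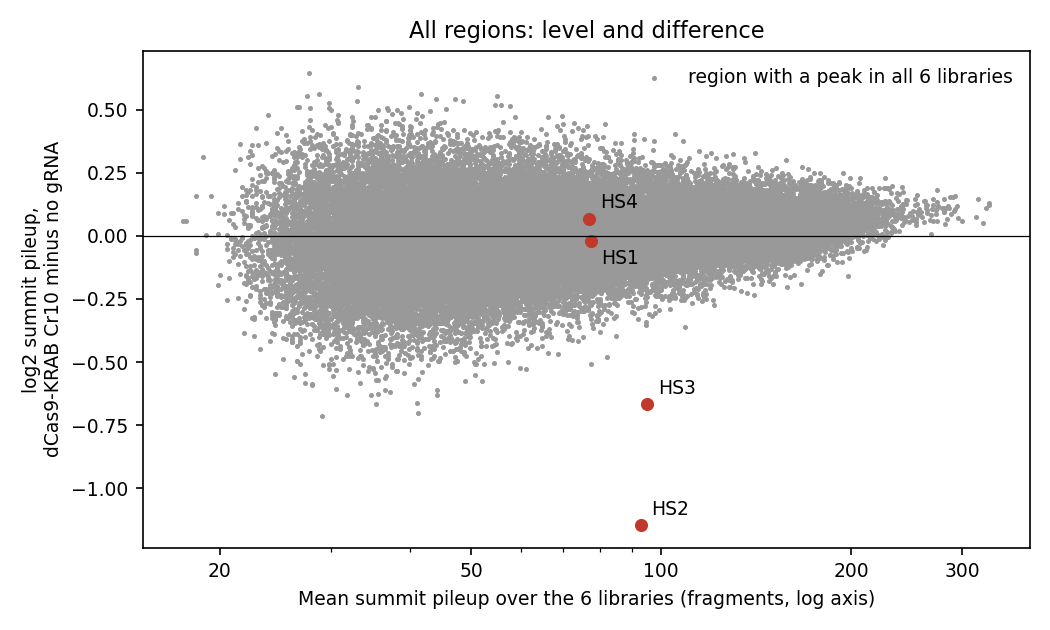
Log2 difference in summit pileup (Cr10 minus no gRNA) against the mean pileup over the 6 libraries (fragments, log axis) for the 43852 regions with a peak in all 6. HS2 and HS3 lie below the other regions of their strength, HS1 and HS4 lie within them, and the spread narrows from the weak regions on the left to the strong ones on the right.

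After HS2, the lowest limma p values on pileup among regions that were lower belonged to chr21:38317847-38318517 (30, 35 and 30 fragments with Cr10; 50, 82 and 38 without gRNA), chr14:91124835-91125466, chr1:109440612-109441082 and chr8:96113746-96114187. Their differences lay between -0.71 and -0.63. The 5 with the lowest p among those that were higher lay at chr15:37393369-37394133, chr9:131944889-131945203, chr1:151547370-151547814, chr2:121437781-121438160 and chr20:44992494-44992836. Their differences lay between 0.40 and 0.56, and the groups overlapped at the last. The strongest of them, on chromosome 1, had 128, 100 and 114 fragments with Cr10 and 85, 134 and 71 without gRNA, which was 2.08, 1.44 and 1.67 times the library median with Cr10 and 1.32, 1.23 and 1.33 times without gRNA. The adjusted limma p was 1.00 for all 9 of these, with and without the block.

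By rank, the region on chromosome 14 was again among the 5 lowest p values in the lower direction, at percentiles 46.9, 30.8 and 35.6 with Cr10 and 61.2, 80.5 and 71.1 without gRNA. The other 4 lay at chr3:133634971-133635514, chr4:186518740-186519084, chr10:128075617-128075877 and chr8:62539845-62540148. Those on chromosomes 3, 10 and 8 had no peak in any shortened Cr10 list. In the higher direction, the 5 lay at chr21:35360741-35361231, chr16:5121595-5122414, chr2:86315131-86315355, chr14:99845093-99845492 and chr1:21636800-21637097. The one on chromosome 16 was among the strong peaks of every list, at 97.3, 93.1 and 96.8 with Cr10 and 88.2, 88.5 and 87.8 without gRNA. The other 4 were weak peaks, and 3 of them had no peak in any shortened no-gRNA list. Each of these 10 had a limma adjusted p of 1.00.

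A peak was gained, meaning present in 3 of 3 Cr10 libraries and 0 of 3 no-gRNA libraries, in 71 of 96962 regions (0.0732%). A peak was lost, meaning present in 0 of 3 Cr10 libraries and 3 of 3 no-gRNA libraries, in 262 regions (0.27%). No gained or lost region lay within 1 Mb of HS2. On chromosome 11 there were 3 gained and 6 lost regions, the nearest of them 38.5 Mb and 7.42 Mb from HS2. In 43852 regions (45.2%) all 6 libraries had a peak.

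The gained and lost regions were weak and narrow. Their median pileup was 25 fragments for gained and 26.3 for lost, against 55.3 for all regions in 3 of 3 Cr10 libraries and 62.3 for all in 3 of 3 no-gRNA libraries. Their median widths were 222 and 227 bp, against 337 and 349 bp. The gained region with the highest mean pileup, chr20:60985266-60985527, had 50, 57 and 55 fragments in the Cr10 libraries. By fold it was weak there, at percentiles 7.29, 3.72 and 4.94 of the deposited lists. The next 4 were chr14:105260463-105260753, chr1:32179993-32180413, chr5:148828937-148829336 and chr16:85518007-85518285, with means between 37.3 and 46.3 fragments. The lost region with the highest mean pileup, chr6:30854236-30854491, had 73, 83 and 49 fragments in the no-gRNA libraries. Its local background there was 21.6, 29.6 and 11.5 fragments. By fold it was weak, at percentiles 3.10, 2.74 and 4.47 of the deposited lists. The next 4 were chr6:35704114-35704371, chr1:145000214-145000475, chr16:85496736-85497066 and chr1:110750433-110750702, with means between 63.7 and 67.0 fragments. A list gives no value where no peak was called, so the size of a gain or loss is unknown.

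These counts changed with the libraries used and with list length. Leaving out a library eases the rule by construction, so higher counts follow from that alone. Without no-gRNA replicates 1, 2 and 3 there were 102, 784 and 95 gained regions. Without Cr10 replicates 1, 2 and 3 there were 382, 270 and 177. Lost regions numbered 1145, 337 and 1519 without no-gRNA replicates 1, 2 and 3. They numbered 462, 634 and 781 without Cr10 replicates 1, 2 and 3. In lists of equal length 122 regions were gained and 144 lost. Of the gained regions, 15 were shared by both ways of counting, 21.1% of those in the deposited lists and 12.3% of those in the shortened lists. Of the lost, 60 were shared, 22.9% of the deposited and 41.7% of the shortened.

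Each of the 9 libraries that did not choose these regions held some of them. No gained region was without a peak in all 9, and the median gained region had a peak in 4 of the 9. The median lost region had a peak in 5 of the 9, 2 had one in none and 3 in all 9. Among the libraries with dCas9 and Cr10, the same gRNA without KRAB, replicates 1, 2 and 3 had a peak at 7.04%, 50.7% and 98.6% of the gained regions and at 17.9%, 43.1% and 87.8% of the lost regions. The shares of all regions with a peak in these libraries were 51.5%, 64.3% and 84.2%. Replicates 1 and 2 were thus below that share on both lists, and replicate 3 was above it. Replicate 3, the library with the most peaks of the 15, was high on both and replicate 1, the one with the fewest, was low on both.

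**Figure D5:**
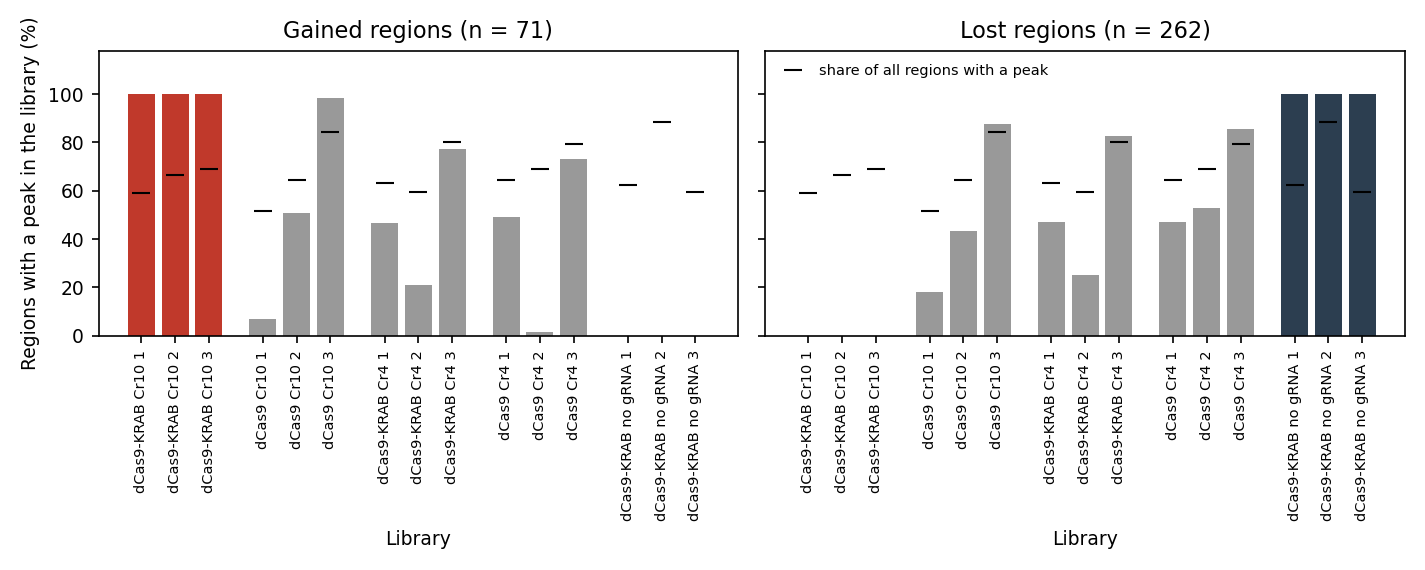
Share of the 71 gained (left panel) and 262 lost (right panel) regions with a peak in each of the 15 libraries (%, bars), with the share of all regions that have a peak in that library as a black line. Bars at 100 and 0 in the dCas9-KRAB Cr10 (red) and no-gRNA (dark blue) libraries follow from how the regions were chosen; among the other 9 libraries (grey) the bars range from 1.41 to 98.6 for gained regions and from 17.9 to 87.8 for lost ones.

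The weaker and stronger regions were also looked up in the 9 other libraries. Of the 781 weaker regions with a peak in all 15, 63.8% were lower in dCas9-KRAB with Cr4, the other gRNA against HS2, than in dCas9 with Cr4, with a median log2 difference of -0.04, against 49.1% of all regions with a median of 0.00. Of the 862 stronger regions 42.1% were lower in that comparison, with a median of 0.02. Between dCas9 with Cr10 and dCas9 with Cr4, where neither carries KRAB, 56.6% of the weaker, 44.0% of the stronger and 46.4% of all regions were lower with Cr10. The 946 weaker regions that the 781 come from had a median pileup of 43.7 fragments, against 64.2 for all 43852 regions. The shares were not matched for strength. Regions are not replicates of a condition, and these shares are a description.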

How the data were processed

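Accessible chromatin was deposited as 1 list of peaks per library on hg19. Per the submitters' processing notes, CASAVA 1.3, BWA and bedtools were used (peak caller, threshold and fragment totals: not given in the sources used here), and no normalization between libraries is recorded. The names of the peaks carry a MACS prefix, and peaks were listed per sample. Fold, a ratio of each summit to its local background, is the authors' own value. The deposited p-value and q-value columns are −log10 of each. The deposited score is a whole number. In at least 99.995% of peaks it is 10 times −log10 q, cut to a whole number.

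Fold and p-value gave a summit pileup and a local background per peak; the pileup was whole within 0.01 of −log10 p in 100% of peaks of each list, and in 3.92% to 6.44% after p-values were shuffled. Peaks on autosomes and X overlapping by at least 1 bp were merged. Pileup was tested as log2(pileup + 1) less the library median in the 38888 regions with a peak in all 15 lists, and rank in 62858 regions with a peak in at least 3 of 15 lists of 53098 peaks, with 0 for no peak. Limma 3.58.1 (R 4.3.3) fitted 15 libraries in 5 groups with a mean-variance trend, Benjamini-Hochberg adjustment and a threshold of 0.05, two-sided. It was also run on simulated data with independent normal noise and planted changes. That noise had no correlation by replicate number and no zeros for missing peaks, so the run cannot show how the fits behave with either. Other values came from Python 3.11.15 with scipy 1.17.1.

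The main fits had no block, and the block on replicate number was an alternative. That libraries of the same number belong together was inferred from these same data. Deviations from the group means correlated at 0.39, 0.12 and 0.46 for pileup between libraries of the same number, and at 0.03 or less otherwise. Deviations within a group sum to 0, so these correlations are not independent. Values of HS2, every beta-globin window with a peak, the 5 strongest gained and lost regions, the 5 regions of lowest limma p in each direction on each measure and regions within 100 kb whose groups did not overlap are named. Members, windows, lists and tests were chosen with earlier results of these data known. Alternatives varied the list length, overlap, filter, centring, limma settings, samples in the fit, block and replicates left out. One locus of the marker list is not reported here. No sequence is printed.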

Additional observations from a re-analysis of the deposited data

How the results depend on the processing

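The HS2 pileup difference kept its direction under every alternative run, and replicates left out one at a time gave -1.35 to -0.98. HS2 was the 1 region called on pileup with the replicate block and with only the 6 libraries fitted (-1.15 in both; limma adjusted p 3.74e-05 and 0.0297), and leaving out a replicate gave 0 to 1 called; over the alternatives its limma adjusted p ranged from 3.74e-05 to 1.00. By rank and by local background 0 regions were called under all alternatives, and leaving out a replicate gave HS2 differences of -55.7 to -31.4 points and -0.67 to -0.41 in log2. The replicate block changed no other call. Gained regions numbered 122 in lists of equal length and 95 to 784 with a replicate left out. Lost regions numbered 144 in lists of equal length, 141 in the 50000 strongest peaks and 337 to 1519 with a replicate left out. Leaving out a replicate eases the rule for gained and lost regions by construction. By rank 466 regions were stronger and 1744 weaker by percentiles in the deposited lists. With a replicate left out, which eases non-overlap by construction, stronger ones numbered 3024 to 3253 and weaker ones 2631 to 3335. By pileup these ranges were 2407 to 4380 for stronger and 2323 to 3371 for weaker, and without centring the counts were 0 and 207. The cause of the other changes was not tested. With fragment totals unknown, depth differences are corrected only through medians and list lengths, and a peak absent from a list may lie just under its threshold.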

Other observations

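The spread of the differences followed the strength of the regions. Among the 10871 regions with a mean pileup of 17.5 to 43.2 fragments and a peak in all 6 libraries, 4.22% were weaker and 1.90% stronger with Cr10, with a median log2 difference of -0.03 and an SD of 0.176. Among the 10968 regions with 104 to 331 fragments, 0.210% were weaker and 2.40% stronger, with a median of 0.05 and an SD of 0.0818. HS2 and HS3 fell in the range of 64.2 to 104 fragments, where 1.41% of 10986 regions were weaker, the SD was 0.123 and the median 0.01.

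Chromosomes differed slightly in their medians, and those with the highest and the lowest median are described. Over all regions with a peak in all 6 libraries 2.16% were weaker and 2.26% stronger. On chromosome 19, 29 of 2879 regions were weaker (1.01%) and 79 stronger (2.74%) with Cr10, with a median log2 difference of 0.05. On chromosome 4, 42 of 1422 were weaker (2.95%) and 16 stronger (1.13%), with a median of -0.02. Chromosome 14 had a higher share of weaker regions, 3.04%. The median centred pileup on chromosome 19 was 0.39, 0.39 and 0.35 in log2 in the Cr10 libraries and 0.39, 0.27 and 0.27 in the no-gRNA libraries. No-gRNA replicate 1 was thus like the Cr10 libraries, and the groups overlapped.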
